A study of Mus musculus with 12 samples.

Results

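The YAP and TEAD genes examined here were 10 listed by name for their known roles: the coactivators Yap1 and Wwtr1 (which encodes TAZ), the DNA-binding factor Tead1, the pathway components Lats2, Ajuba, and Amotl2, and the target genes Ctgf, Cyr61, Ankrd1, and Axl. They are 10 of the 30705 gene names in the table, and all 10 were among the 11282 genes tested, whose mean was 1 RPKM or more (reads scaled by transcript length and by the mapped reads of a sample). These genes, and the gene lists used below, were chosen with earlier results of these data known. Their counts set against all genes are therefore a description. RNA-seq was performed on 12 cultured samples of a murine Braf V600E melanoma line, 3 in each of 4 groups: scramble control cells and lines with a knockout (KO) of ptgs1, ptgs2, or ptges, the genes for COX-1, COX-2, and the prostaglandin E2 synthase mPGES-1. All 4 groups shared the same C57BL/6 background, since the line came from a mouse that was Braf+/LSL-V600E, carried Tyr::CreERT2+/o, in which the tyrosinase promoter drives the recombinase, and was p16INK4a-/-. The knockouts were made with CRISPR/Cas9, selected with puromycin, and subcloned by limiting dilution, and the study states that the RNA of a line came from different subclones. The p-values therefore measure the spread between such samples, and a property of single subclones cannot be told apart from the knockout where it is shared by a line.

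YAP and TAZ carry signals of cell density, shape, and tension into the nucleus. They do not bind DNA themselves but join TEAD factors on the promoters and enhancers of genes for matrix proteins, adhesion, and growth. The Hippo kinases restrain them: MST kinases activate LATS kinases, which phosphorylate YAP and TAZ and hold them in the cytoplasm, so that mRNA levels do not show how active the proteins are. In melanoma, YAP and TAZ are known for links to invasion and to drug-resistant states in which AXL is high. The lines were compared in pairs to ask whether loss of either cyclooxygenase or of the synthase changed the level of these genes.

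The targets did not move as a block. Ctgf was higher in ptgs1-KO than in scramble cells by 1.34-fold, Cyr61 and Ankrd1 were higher in ptgs2-KO cells by 1.42-fold and 1.36-fold, and none of the 10 genes passed the test in ptges-KO cells, where up to 3 did with other scalings. Yap1, Tead1, and Ajuba passed it in no pair of groups. Values below are RPKM, and differences are differences in log2(RPKM + 1) with their standard error (SE). A gene passed the test when limma, with Benjamini-Hochberg adjustment over all genes tested, gave an adjusted p under 0.05. The Tukey values given as an alternative carry the same adjustment over all genes, a step the study does not name for its Tukey test.

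Promoter sequences are shown as a description outside the measured levels, and were searched for the short motif that TEAD factors are known to bind. In the RefSeq promoter table for GRCm38.p6, with windows from 250 bases before to 50 bases after an annotated start, 8 of the 10 genes had a window. Ctgf and Tead1 had none. The TEAD motif GGAATG, or CATTCC where it lies on the other strand, was found in a window of all 8 genes, and in 9 of their 10 windows. It was found in 14.7% of all 32851 windows and in 11.9% of the 11073 windows of genes tested. The AP-1 motif TGANTCA on either strand (7.81% of all windows) and the CArG box (1.63%) had no match in these windows, so that no match overlapped another motif. A match is a description of the letters and no measurement of binding.

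The windows of Cyr61, Ankrd1, and Amotl2, whose levels passed a test against scramble cells, are given whole, 5′ to 3′ on the strand of the gene, with the TEAD motif in capitals. They lie at chr3:145649936-145650235 (minus strand) for Cyr61, at chr19:36119795-36120094 (minus strand) for Ankrd1, and at chr9:102717554-102717853 (plus strand) for Amotl2.
Cyr61: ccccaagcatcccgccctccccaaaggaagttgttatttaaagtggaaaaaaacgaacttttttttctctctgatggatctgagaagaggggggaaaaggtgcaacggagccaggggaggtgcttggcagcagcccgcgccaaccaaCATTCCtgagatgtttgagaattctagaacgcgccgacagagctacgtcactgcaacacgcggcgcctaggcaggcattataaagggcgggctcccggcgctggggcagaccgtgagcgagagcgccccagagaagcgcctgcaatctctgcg
Ankrd1: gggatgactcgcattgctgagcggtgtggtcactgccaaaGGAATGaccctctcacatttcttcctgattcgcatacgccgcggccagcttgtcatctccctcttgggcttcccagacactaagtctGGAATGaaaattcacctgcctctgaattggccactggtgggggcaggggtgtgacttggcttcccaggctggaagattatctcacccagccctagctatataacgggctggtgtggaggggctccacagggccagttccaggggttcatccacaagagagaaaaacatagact
Amotl2: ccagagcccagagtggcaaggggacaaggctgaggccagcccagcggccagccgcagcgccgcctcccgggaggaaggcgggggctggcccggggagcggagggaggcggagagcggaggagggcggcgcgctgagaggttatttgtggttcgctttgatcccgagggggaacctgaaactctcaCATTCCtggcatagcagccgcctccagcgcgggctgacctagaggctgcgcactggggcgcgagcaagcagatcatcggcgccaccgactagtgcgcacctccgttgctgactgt
For the other genes, the motif is given with its flanks, also on the strand of the gene. Ajuba had a pair of matches, and the 2 windows of Wwtr1 shared 1.
Axl: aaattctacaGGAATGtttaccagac
Lats2: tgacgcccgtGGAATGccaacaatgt
Yap1: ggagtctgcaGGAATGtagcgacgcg
Wwtr1: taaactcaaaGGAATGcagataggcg
Ajuba, farther from the start: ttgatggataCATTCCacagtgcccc
Ajuba, nearer to the start: cccctccgcgCATTCCaactgtaaac
The match began 103 bases before the start of Cyr61 and 65 bases before the annotated start used for Amotl2. This Amotl2 window lies wholly inside the gene, which begins at chr9:102717091 on the same strand. Its match is therefore downstream of the first base of the gene. Ankrd1 held matches that began 210 and 123 bases before its start. The match of Lats2 began 5 bases after the start, in the transcribed part. For Axl and Ajuba the end of the window was not found in a GENCODE M21 transcript of the gene, so their starts rest on RefSeq alone.

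**Figure D1:**
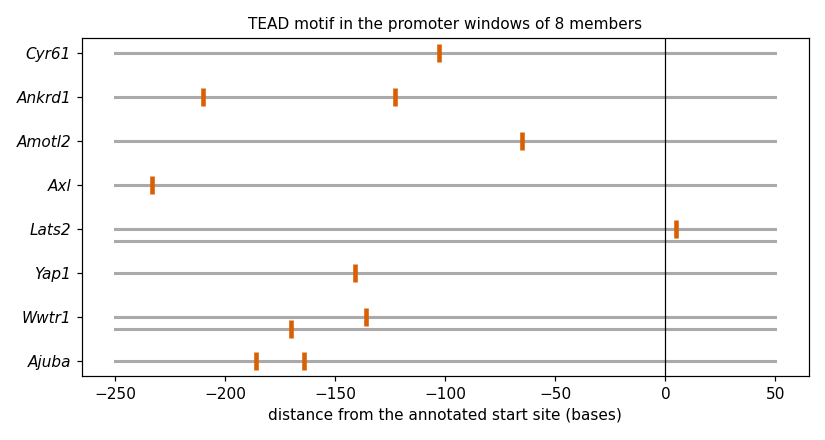
Positions of the TEAD motif in the promoter windows of 8 genes, as the distance of its first base from the annotated start site (bases, x axis). Each grey line is 1 window and each orange mark 1 match. Of the windows of Lats2, 1 holds none, and the match nearest to a start lies 5 bases after that of Lats2. The window of Amotl2 lies inside the gene.

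The labels were checked first on the targeted genes. Ptgs1 was at 141.65 to 164.17 RPKM in scramble cells and at 14.3 to 16.91 in ptgs1-KO cells. Ptgs2 was at 748.76 to 776.77 in scramble and at 76.13 to 84.62 in ptgs2-KO cells. Ptges was at 75.01 to 79.82 in scramble cells and at 34.83 to 41.01 in ptges-KO cells. In ptgs1-KO cells both other targeted genes were also lower than in scramble cells: Ptges was at 51.5 to 56.94 (-0.50, limma adjusted p = 0.0011) and Ptgs2 at 501.52 to 668.29 (-0.36, adjusted p = 0.0386). The call of Ptgs2 held in 8 of 21 alternatives and was lost without any 1 scramble sample, ptgs1-KO replicate 1 or 3, ptgs2-KO replicate 2 or 3, or ptges-KO replicate 2 or 3 (adjusted p 0.0512 to 0.118). The pigment cell markers Sox10, Mlana, Dct, and Tyrp1 were listed at 0 in all 12 samples, Tyr was at 0.29 to 1.29 RPKM, and Mitf was at 0.97 to 3.35 RPKM, so that the melanocytic origin rests on the labels. Of markers of other cells, 2 of 6 for fibroblasts (Dcn, Lum), 2 of 5 for leukocytes (Cd3e, Lyz2), and 2 of 2 for keratinocytes (Krt5, Krt14) were listed at 0 throughout. For endothelial cells 0 of 2 were (Pecam1, Cdh5), and neither was above 0.14 RPKM in any sample. Summed over the 5 leukocyte markers, the level was 1.44 to 2.08 RPKM in scramble, 0.84 to 1.08 in ptgs1-KO, 0.67 to 1.69 in ptgs2-KO, and 0.75 to 0.93 in ptges-KO cells, carried by Cd68. Summed over the 6 fibroblast markers, the level was 8.34 to 8.89 RPKM in scramble, 10.86 to 12.5 in ptgs1-KO, 3.81 to 4.98 in ptgs2-KO, and 5.03 to 6.01 in ptges-KO cells, carried by Pdgfra. The part of both sums in the results was not tested. In bulk RNA, fewer cells of a kind and less RNA per cell cannot be told apart.

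Depth was estimated at 13.2 to 16.6 M reads in 11 of the 12 samples from the steps of low values; ptgs1-KO replicate 1 gave no clear step. The lowest value of Ctgf, the lowest of the 10 genes, was that of ptges-KO replicate 3, where it rested on about 1300 reads at a depth of 16.6 M. In replicate 3 of ptgs1-KO the transcript AK155692 was at 74434.99 RPKM against 2503.74 to 24724.31 in the other samples. The median ratio size factor of this sample was the lowest, at 0.938 against 0.964 to 1.064. It held the highest of the 3 ptgs1-KO values for 0 of the 10 genes and for 9.2% of all genes tested. Replicate 3 also held it for 0 of the 10 in ptgs2-KO and ptges-KO cells (16.4% and 23% of all genes). In the knockout lines replicate 1 held the highest of the 3 values for 7 of the 10 genes in ptgs1-KO, 7 in ptgs2-KO, and 9 in ptges-KO cells, against 54.9%, 47.6%, and 55.2% of all genes tested. The part of these differences between samples in the results was not tested, and the calls among the 10 genes that 1 sample decides are given below with and without it.

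Among the coactivators, Yap1 (chr9:7931999-8004638), which encodes YAP, was at 51.07, 47.75, and 47.22 RPKM in scramble cells. It was at 63.8, 51.7, and 53.5 in ptgs1-KO, at 67.04, 55.02, and 50.18 in ptgs2-KO, and at 62.7, 53.87, and 52.81 in ptges-KO cells. All samples of ptgs1-KO and ptges-KO were above all scramble samples, whereas ptgs2-KO overlapped them at its lowest value. The differences from scramble cells were 0.20, 0.22, and 0.21 (SE 0.11 each) with adjusted p of 0.309, 0.221, and 0.199 by limma. The 95% confidence interval reached from -0.04 to 0.44 in ptgs1-KO, from -0.02 to 0.47 in ptgs2-KO, and from -0.04 to 0.45 in ptges-KO cells.

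Wwtr1 (chr3:57455644-57575910), which encodes TAZ, had a mean of 117.7 RPKM over the 12 samples, above that of Yap1 at 54.72 RPKM. It was at 103.41, 111.43, and 116.55 RPKM in scramble and at 117.08, 104.15, and 94.56 in ptgs1-KO cells. It was at 135.97, 127.42, and 129.01 in ptgs2-KO and at 136.54, 119.22, and 117.08 in ptges-KO cells. The ptgs2-KO and ptges-KO samples were all above the scramble samples, but neither difference passed the test (0.24, SE 0.09, adjusted p = 0.1, and 0.17, SE 0.09, adjusted p = 0.192). Against ptgs1-KO cells, Wwtr1 was 1.24-fold higher in ptgs2-KO cells (0.32, SE 0.09, limma adjusted p = 0.021). This call was lost without ptgs1-KO replicate 2 (adjusted p = 0.0575), without ptgs1-KO replicate 3 (0.0698), without ptgs2-KO replicate 1 (0.0619), with only the 2 groups in the model (0.0552), and by the Tukey test on untransformed values (0.155), over a range of 0.00357 to 0.155 in 21 alternatives. In ptges-KO against ptgs1-KO cells the difference of 0.24 (SE 0.09) had an adjusted p of 0.059, which was 0.0217 without ptgs1-KO replicate 1.

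Tead1 (chr7:112679356-112906784), which encodes the factor that brings YAP and TAZ to DNA, overlapped between all groups. Its values ran from 58.17 to 75.6 RPKM in scramble, 65.54 to 70.99 in ptgs1-KO, 63.5 to 80.63 in ptgs2-KO, and 58.16 to 72.69 in ptges-KO cells. The largest of its 6 differences in size was that between ptges-KO and ptgs2-KO cells (-0.15, SE 0.12, 95% confidence interval -0.40 to 0.10, adjusted p = 0.425). Tead1 and Yap1 had the highest p-values of the 10 genes for any difference between the 4 groups (moderated F test, adjusted p = 0.636 and 0.284).

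Of the pathway components, Amotl2 (chr9:102717091-102733418), an angiomotin-like protein that binds YAP and whose gene is itself a YAP target, was lowest in scramble cells, at 103.87, 96.42, and 105.39 RPKM. It was at 143.77, 125.2, and 125.73 in ptgs1-KO, at 136.81, 119.39, and 112.41 in ptgs2-KO, and at 126.26, 104.6, and 99.88 in ptges-KO cells. The ptgs1-KO and ptgs2-KO samples were all above the scramble samples, and ptges-KO overlapped them. In ptgs1-KO cells the difference of 0.36 (SE 0.10, 1.29-fold) passed the test with an adjusted p of 0.0396 by limma. It passed in 10 of 21 alternatives and was lost without any 1 of the 6 samples of the pair, with adjusted p of 0.0531 to 0.141 then; without ptgs2-KO replicate 2 or ptges-KO replicate 2 it was 0.0554 and 0.0549. In ptgs2-KO cells the difference was 0.26 (SE 0.10, adjusted p = 0.113). Between ptges-KO and ptgs1-KO cells it was -0.26 (SE 0.10, adjusted p = 0.0713), and -0.36 without ptges-KO replicate 1 (0.0137).

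Lats2 (chr14:57689662-57746212), a kinase that phosphorylates YAP and TAZ and also a YAP target gene, was at 63.32, 62.81, and 69.38 RPKM in scramble cells. It was at 79.68, 73.06, and 74.21 in ptgs1-KO, at 76.37, 65.83, and 63.34 in ptgs2-KO, and at 70.3, 61.08, and 57.83 in ptges-KO cells. All ptgs1-KO samples were above those of scramble and ptges-KO cells. Only the difference between ptges-KO and ptgs1-KO cells passed the test (-0.26, SE 0.09, adjusted p = 0.0455), and it did so in 8 of 21 alternatives. The call was lost without any 1 of the samples of scramble cells (adjusted p 0.0529 to 0.0601), of ptgs1-KO cells (0.0641 to 0.132), or without ptgs2-KO replicate 2 (0.0587), ptges-KO replicate 2 (0.136), or ptges-KO replicate 3 (0.171). Ajuba (chr14:54567469-54577661; listed under its older symbol Jub), a LIM protein that inhibits LATS kinases, was at 85.83 to 99.8 in scramble, 89.99 to 109.18 in ptgs1-KO, 82.77 to 87.43 in ptgs2-KO, and 73.4 to 92.74 in ptges-KO cells. Its difference between ptges-KO and ptgs1-KO cells had an adjusted p of 0.0515 (-0.27, SE 0.10), and that was 0.0265 without ptgs1-KO replicate 3 and 0.0137 without ptges-KO replicate 1.

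**Figure D2:**
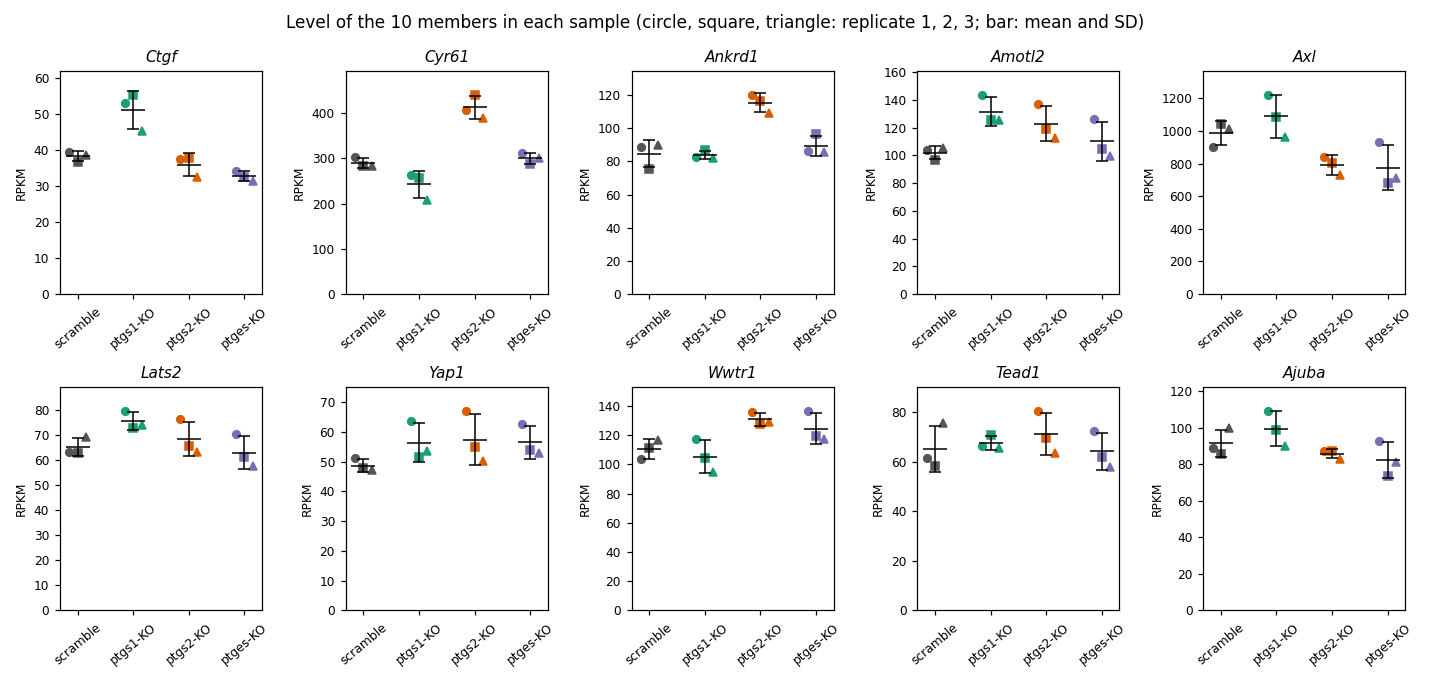
Level of the 10 genes in each of the 12 samples (RPKM, y axis from 0; groups on the x axis; circle, square, and triangle for replicates 1, 2, and 3; black bars for mean and SD, n = 3). Ctgf is highest in the ptgs1-KO samples (45.28 to 55.39 RPKM), and Cyr61 (388.54 to 440.28) and Ankrd1 (109.07 to 120.18) are highest in the ptgs2-KO samples.

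Ctgf (now Ccn2; chr10:24595442-24598683), which encodes connective tissue growth factor, a secreted matricellular protein and a standard YAP readout, had the lowest level per length of the 10 genes. It was at 39.53, 36.82, and 38.62 RPKM in scramble and at 52.97, 55.39, and 45.28 in ptgs1-KO cells. It was at 37.58, 37.93, and 32.43 in ptgs2-KO and at 34.24, 32.58, and 31.45 in ptges-KO cells. All ptgs1-KO samples were above every other sample, and all ptges-KO samples were below the scramble samples. Against scramble cells the difference in ptgs1-KO cells was 0.405 (SE 0.09, limma adjusted p = 0.0121), with means of 51.21 ± 5.28 and 38.32 ± 1.38 (SD, n = 3). This call was lost without scramble replicate 2 (adjusted p = 0.0549), without ptgs1-KO replicate 2 (0.0558), and by the Tukey test on untransformed values (0.105), over a range of 0.000743 to 0.105 in 21 alternatives; without ptgs1-KO replicate 3 the difference was 0.49. In ptges-KO cells the difference of -0.22 (SE 0.09) had an adjusted p of 0.0875, which was 0.0448 without ptgs1-KO replicate 3, a sample outside that pair, since all groups share 1 estimate of the spread. In order of mean level, ptgs1-KO cells differed from scramble cells, which came next, whereas scramble and ptgs2-KO (adjusted p = 0.546) and ptgs2-KO and ptges-KO cells (0.362) did not differ beyond their spread.

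Cyr61 (now Ccn1; chr3:145646971-145649985), the gene of a second matricellular protein of the same family, was at 303.11, 283.08, and 282.55 RPKM in scramble and at 261.94, 257.12, and 207.64 in ptgs1-KO cells. It was at 407.41, 440.28, and 388.54 in ptgs2-KO and at 312.57, 287.86, and 299.65 in ptges-KO cells. All ptgs2-KO samples were above every other sample, and all ptgs1-KO samples were below every other sample. The means were 412.1 ± 26.2 in ptgs2-KO and 289.6 ± 11.7 in scramble cells (SD, n = 3), a difference of 0.51 (SE 0.09, limma adjusted p = 0.00362) that passed the test in all 21 alternatives. In ptgs1-KO cells the difference was -0.26 (SE 0.09, limma adjusted p = 0.0982), in the direction opposite to that of Ctgf. It passed the test under median ratio scaling (0.0124) and quantile normalization (0.0243). Without ptgs1-KO replicate 3 it was -0.157 (limma adjusted p = 0.215), and the Tukey test gave an adjusted p of 0.615. In ptges-KO cells the difference was 0.05 (SE 0.09, limma adjusted p = 0.725, 95% confidence interval -0.15 to 0.25).

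Ankrd1 (chr19:36111965-36119844), which encodes an ankyrin repeat protein of the nucleus and the sarcomere that YAP induces, was at 88.59, 75.42, and 90 RPKM in scramble and at 82.85, 86.57, and 81.84 in ptgs1-KO cells. It was at 120.18, 116.62, and 109.07 in ptgs2-KO and at 86.38, 96.25, and 85.43 in ptges-KO cells. As for Cyr61, all ptgs2-KO samples were above every other sample, while the 3 other groups overlapped. The difference between ptgs2-KO and scramble cells was 0.44 (SE 0.08, limma adjusted p = 0.00409) and passed the test in all 21 alternatives. The difference between ptgs1-KO and scramble cells was -0.01 (SE 0.08, 95% confidence interval -0.19 to 0.17).

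**Figure D3:**
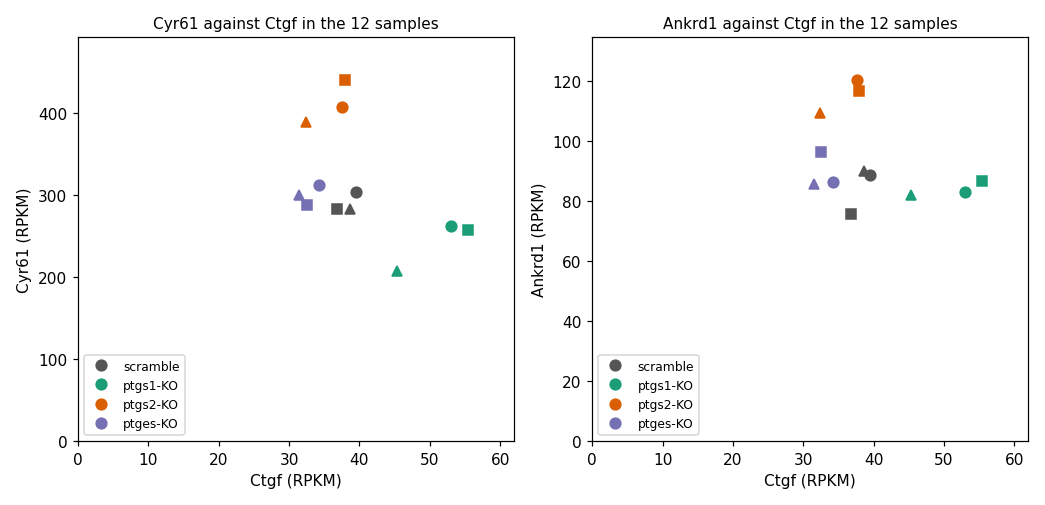
Cyr61 (left) and Ankrd1 (right) against Ctgf in the 12 samples, each axis in RPKM from 0, with a color for each group and a symbol for each replicate. The ptgs1-KO samples lie at the right, at 45.28 to 55.39 RPKM of Ctgf, and the ptgs2-KO samples lie at the top, at 388.54 to 440.28 RPKM of Cyr61 and 109.07 to 120.18 of Ankrd1.

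Axl (chr7:25756500-25788924), a receptor tyrosine kinase whose gene is a YAP target, was the most abundant of the 10 genes per length, and only 1.02% of the genes tested were at or above its level. It was at 904.12, 1046.04, and 1013.6 RPKM in scramble and at 1223.36, 1087.83, and 962 in ptgs1-KO cells. It was at 843.84, 804.51, and 728.31 in ptgs2-KO and at 933.34, 681.8, and 712.1 in ptges-KO cells. The ptgs2-KO samples were all below the scramble samples, and ptges-KO overlapped them through replicate 1 alone. Neither difference from scramble cells passed the test (-0.32 and -0.36, SE 0.13 each, adjusted p = 0.126 and 0.0522). In ptges-KO cells the difference was -0.50 with an adjusted p of 0.0077 without ptges-KO replicate 1, and the adjusted p was 0.0467 without ptgs1-KO replicate 1 and 0.041 without ptgs1-KO replicate 3, over a range of 0.0077 to 0.432 in 21 alternatives. Against ptgs1-KO cells Axl was lower in ptges-KO (-0.50, SE 0.13, limma adjusted p = 0.01) and in ptgs2-KO cells (-0.46, SE 0.13, adjusted p = 0.019). The call in ptges-KO cells was lost without ptges-KO replicate 2 (0.0547), and that in ptgs2-KO cells without ptgs1-KO replicate 1 (0.0762) or ptgs2-KO replicate 3 (0.0768); both were lost by the Tukey test (0.13 and 0.174).

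Counted over the 10 genes, 2 were higher and 0 lower in ptgs1-KO than in scramble cells, where 9.26% of all genes tested were called, and their median difference was 0.13 against 0.01 over all genes. In ptgs2-KO cells 2 were higher and 0 lower, with 11.1% of all genes called and a median of 0.18 against 0.01. In ptges-KO cells 0 of 10 were called by limma, against 26.3% of all genes; 2 of them, Ctgf and Axl, had an unadjusted p under 0.05, and the Tukey test also called 0. With other scalings some passed in ptges-KO cells: Ctgf, Axl, and Wwtr1 with median ratio scaling and Ctgf and Axl with quantile normalization. Axl also passed without ptgs1-KO replicate 1 or ptges-KO replicate 1, and both Ctgf and Axl without ptgs1-KO replicate 3. The groups did not overlap for 5 of the 10 genes in ptgs1-KO (26.9% of all genes), 5 in ptgs2-KO (35.1%), and 3 in ptges-KO cells (43.3%). The 3 comparisons share the scramble samples, so that their counts are not independent. For any difference between the 4 groups, 6 of 10 passed the F test (Ctgf, Cyr61, Ankrd1, Amotl2, Axl, and Wwtr1), against 38.6% of all genes. That number ran from 4 to 8 over the alternatives with an F test. It was 4 with no filter and with eBayes without trend. It was also 4 without scramble replicate 1 or 2, ptgs1-KO replicate 2 or 3, ptgs2-KO replicate 2, or ptges-KO replicate 2. It was 8 with quantile normalization and without ptges-KO replicate 1.

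**Figure D4:**
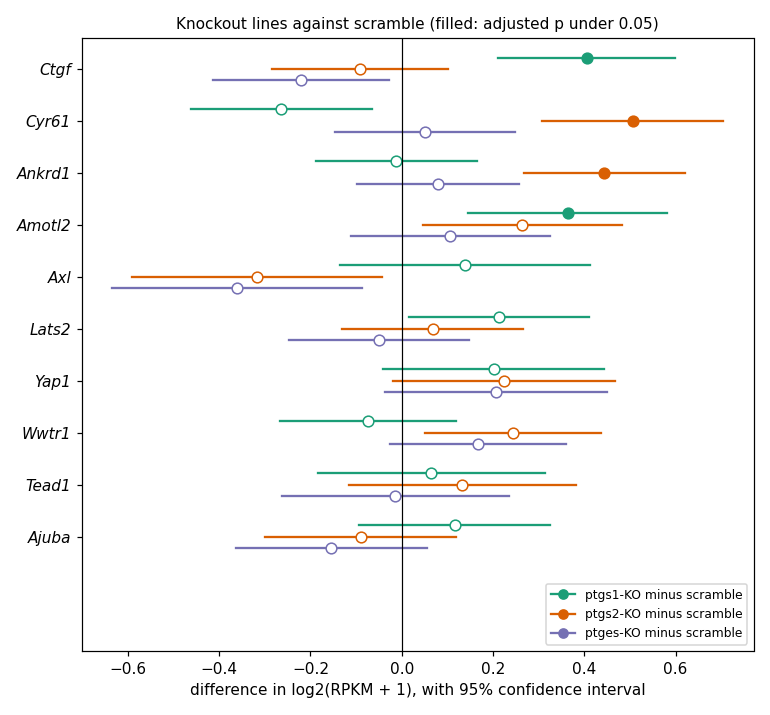
Difference of each knockout line from scramble cells in log2(RPKM + 1) for the 10 genes (x axis), with 95% confidence intervals from limma (n = 3 per group) and filled circles at an adjusted p under 0.05. The filled circles are Ctgf and Amotl2 in ptgs1-KO cells (0.405 and 0.36) and Cyr61 and Ankrd1 in ptgs2-KO cells (0.51 and 0.44).

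Between knockout lines, the largest difference of the 10 genes was that of Cyr61 between the lines that lack a cyclooxygenase. In ptgs2-KO against ptgs1-KO cells, Cyr61 was 1.70-fold higher (0.77, SE 0.09, limma adjusted p = 5.01e-05) and Ankrd1 1.38-fold higher (0.46, SE 0.08, adjusted p = 0.00125), whereas the mean of Ctgf was 70.3% of that in ptgs1-KO cells (-0.50, SE 0.09, adjusted p = 0.0013). With Wwtr1 higher and Axl lower, 5 of 10 genes were called, against 23.6% of all genes, and 6 did not overlap (35.2%). In ptges-KO against ptgs1-KO cells, Ctgf was at 64.0% (-0.63, SE 0.09, adjusted p = 0.000188), Axl and Lats2 were lower, and Cyr61 was 1.24-fold higher (0.31, SE 0.09, adjusted p = 0.0204). These were 4 of 10 genes, against 30.2% of all genes, and the same number did not overlap (40.3%). The call of Cyr61 was lost without ptgs1-KO replicate 3 (0.0533), ptges-KO replicate 1 (0.0508), or ptges-KO replicate 3 (0.0547).

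In ptges-KO against ptgs2-KO cells, which differ in the step of prostaglandin synthesis that is lost, Cyr61 was at 72.8% (-0.46, SE 0.09, limma adjusted p = 0.00443) and Ankrd1 at 77.5% (-0.37, SE 0.08, adjusted p = 0.00833). The other 8 genes passed no test, and these 2 were also the ones whose groups did not overlap, against 16.6% of all genes called and 34.0% without overlap. The call of Ankrd1 was lost by the Tukey test (0.0503).

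A list of 29 other Hippo pathway genes gave the surroundings of the 10, and 27 of them were tested. In ptgs1-KO cells 2 were higher and 0 lower, or 7.41% against 9.26% of all genes called, with a median of 0.09; the count was 1 without scramble replicate 1 or 2, ptgs1-KO replicate 1 or 3, ptgs2-KO replicate 2 or 3, or ptges-KO replicate 2 or 3. Tead3, another TEAD factor, rose from 5.08 to 6.59 RPKM in scramble to 10.68 to 15.13 in ptgs1-KO cells (2.15-fold, 0.98, SE 0.16, adjusted p = 0.00186), a call lost by the Tukey test (0.0711). Vgll3, a cofactor that binds TEAD factors, was 1.40-fold higher (adjusted p = 0.0476). It was called in 7 of 20 alternatives, and not without scramble replicate 1 or 2, any 1 ptgs1-KO sample, ptgs2-KO replicate 2 or 3, or ptges-KO replicate 2 or 3, with adjusted p of 0.0532 to 0.196 then. In ptgs2-KO cells 0 of the 27 were called by limma (11.1% of all genes) and 0 by the Tukey test, and 1, Vgll3, had an unadjusted p under 0.05 (0.29, adjusted p = 0.165).

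In ptges-KO cells 2 of the 27 were higher and 4 lower, or 22.2% called against 26.3% of all genes, with a median of -0.02; 2 were called without scramble replicate 3 or ptges-KO replicate 2. Stk3, which encodes the kinase MST2, was at 48.92 to 53.09 RPKM against 26.49 to 29.42 in scramble cells (1.84-fold, 0.86, SE 0.10, limma adjusted p = 3.52e-05). Ptpn14, a phosphatase that binds YAP, was at 26.12 to 36.27 against 41.81 to 52.61 (-0.60, SE 0.16, adjusted p = 0.0127), and the call was lost without scramble replicate 3 (0.0596) or ptges-KO replicate 2 (0.0602). Fat1, an atypical cadherin upstream of the pathway, was at 96.22 to 147.92 against 140.75 to 181.17 (-0.55, SE 0.18, adjusted p = 0.0359), with the call lost without scramble replicate 2 (0.107) or 3 (0.119) or without ptges-KO replicate 2 (0.126) or 3 (0.133). It was also lost with no filter (0.0814). By the Tukey test the calls of Ptpn14 (0.244) and Fat1 (0.453) were lost, and that of Stk3 held (0.00116). The remaining 3 called were Taok2 and Amot, which were lower, and Strn3, which was higher.

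A list of 16 further YAP and TAZ targets had 14 tested, with Ptpn14 also on the Hippo list. In ptgs1-KO cells 5 were higher (35.7%, against 4.65% of all genes higher) and 0 lower, with a median of 0.26 against 0.01 over all genes: Igfbp3, Fjx1, F3, Crim1, and Gadd45a. The count was 3 without scramble replicate 2 or 3 or without ptgs1-KO replicate 1 or 2. Igfbp3, which encodes a binding protein of insulin-like growth factors, was at 160.5 to 176.1 RPKM in scramble, 386.32 to 496.85 in ptgs1-KO, 66.7 to 76.69 in ptgs2-KO, and 124.31 to 129.64 in ptges-KO cells. Its difference from scramble cells was 1.40 in ptgs1-KO (SE 0.09, adjusted p = 4.97e-07), -1.26 in ptgs2-KO (adjusted p = 1.89e-06), and -0.42 in ptges-KO cells (adjusted p = 0.0056). F3, which encodes tissue factor, was 1.41-fold higher in ptgs1-KO cells (0.49, SE 0.08, adjusted p = 0.00189). Fjx1, a homolog of the fly kinase four-jointed, was near the filter at 0.73 to 1.32 RPKM in scramble cells and rose to 3.28 to 4.97 in ptgs1-KO and 2.25 to 2.59 in ptges-KO cells, where the pseudocount understates the fold change (1.23 and 0.76 on the log2 scale, adjusted p = 0.000205 and 0.00346). By the Tukey test the calls of Igfbp3 in ptgs2-KO (0.188) and of Fjx1 in ptges-KO cells (0.208) were lost.

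In ptgs2-KO cells 0 of these 14 were higher and 1, Igfbp3, was lower, or 7.14% called against 11.1% of all genes, with a median of -0.02 (2 called without ptgs1-KO replicate 3). In ptges-KO cells 2 were higher and 2 lower, or 28.6% called against 26.3% of all genes, and 8 were called without ptges-KO replicate 1. Asap1, which encodes a regulator of ARF GTPases, was at 65.34 to 79.21 RPKM against 39.53 to 50.96 in scramble cells (0.64, SE 0.12, limma adjusted p = 0.00174), Fjx1 was higher, and Ptpn14 and Igfbp3 were lower. Between ptgs2-KO and ptgs1-KO cells the level in ptgs2-KO cells was lower for 7 of the 14 (against 11.6% of all genes lower) and higher for 0. The median was -0.33 against -0.005 over all genes. In ptges-KO against ptgs1-KO cells 8 were lower (17% of all genes) and 1 higher (13.2%), with a median of -0.44 against -0.04. In ptges-KO against ptgs2-KO cells 5 were higher (6.76%) and 2 lower (9.84%), with a median of 0.01 against -0.03. By the Tukey test 5, 4, and 0 were called in these pairs, in that order.

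**Figure D5:**
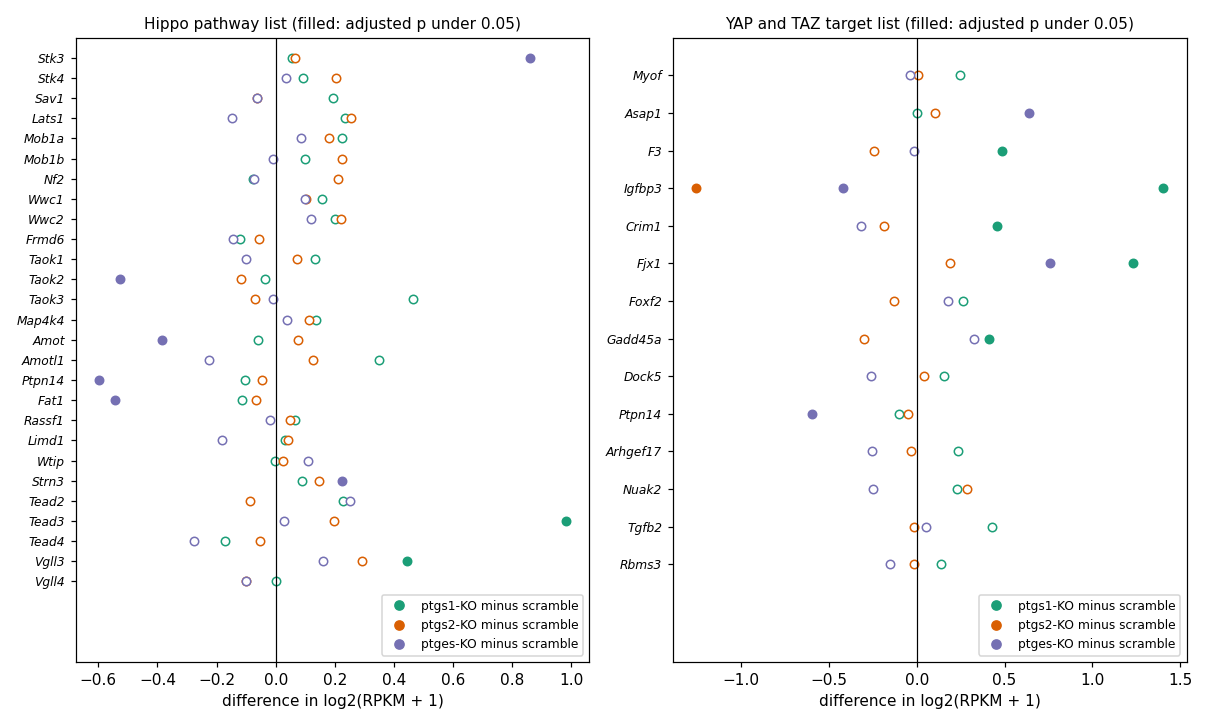
Difference of each knockout line from scramble cells in log2(RPKM + 1) (x axis) for the tested genes of the Hippo pathway list (left, 27 genes) and of the target list (right, 14 genes), with a color for each line and filled circles at an adjusted p under 0.05. Igfbp3 has the widest span, from -1.26 in ptgs2-KO to 1.40 in ptgs1-KO cells, and the 5 filled circles of ptgs1-KO cells in the right panel all lie above 0.

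The genes most like 3 of the targets over the 4 group means were found by the root mean square difference between profiles of log2(RPKM + 1), each centered on its own mean. For Ctgf they were 4930402H24Rik (0.022), Rab4b, a GTPase of recycling endosomes (0.024), and AK138781 (0.024). For Cyr61 they were Gar1, a protein of H/ACA ribonucleoproteins (0.017), Ssx2ip (0.027), and Arap2 (0.034). For Ankrd1 they were Dlgap4 (0.014), BC031451 (0.019), and 2310008H09Rik (0.020). None of the 10 genes or of the lists was among these 9. Each profile has 4 points, and the likeness is a description.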

How the data were processed

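RNA-seq was performed by the authors on 12 samples with 101 bp paired-end reads. The authors deposited 1 table of RPKM values to 2 decimals, which their methods call normalized counts. The submitters' processing notes name the genome build mm10, and the aligner and counter are not given in the sources used here. The labels name 2 library kits, TruSeq v2 and NEXTflex Rapid Directional, and it is not stated whether counting used strand. Each sample's values summed to between 878504 and 903881, so that read totals are not in the table. Samples were grouped by their labels, and 0 value columns were left out.

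The analysis used R 4.3.3, limma 3.58.1, Python 3.11.15 and, for plots, matplotlib 3.10.9. Of 30705 names, 12082 were at 0 in all samples and 11282 reached a mean of 1 RPKM and were tested. Values entered the model as log2(RPKM + 1), pseudocount 1. A single limma fit held all 12 samples (lmFit, then eBayes with its trend option), from which 6 pairs of groups and a moderated F test were read, with Benjamini-Hochberg adjustment over all genes tested. The study used one-way ANOVA with Tukey's test. A Tukey test was run here as an alternative on untransformed values, with Benjamini-Hochberg adjustment over all genes tested on top of it. The study does not name this second step. A call lost by the Tukey test here need therefore not be lost in the study's own test. The 10 genes and the lists were chosen with earlier results of these data known. A gene of the Hippo list is not reported here. Named genes were the 10, the 3 targeted genes, per knockout and list the 3 called genes with the largest difference from scramble cells, and for Ctgf, Cyr61, and Ankrd1 the 3 genes nearest in profile. Taok2, Amot, Strn3, Crim1, and Gadd45a were named after their values were seen, to complete counts.

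Depth came from the step between low values, multiplied by transcript length (GENCODE M21), and is given only where that step was clear. Whole read counts were not recovered. For the lowest value of Ctgf the depth corresponds to a counting error of 2.8%. Promoter windows and positions were taken from RefSeq tables (GRCm38.p6). Alternatives comprised a smaller pseudocount (0.1), no filter, a filter at a mean of 10, median ratio scaling, quantile normalization, the replicate number as a block, a model of only the 2 groups compared, eBayes without trend, the Tukey test, and each replicate left out in turn. The steps were tested on simulated data.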

Additional observations from a re-analysis of the deposited data

Results flagged for a closer look

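In 2 cases every sample of one knockout line was above all scramble samples and every sample of another was below them. A limma adjusted p under 0.05 between the lines was also required for listing, so that passing it is no further result. For Ctgf, ptgs1-KO was above and ptges-KO below scramble cells, and the difference of ptges-KO from ptgs1-KO cells was -0.625 on the log2 scale (limma adjusted p = 0.000188). For Cyr61, ptgs2-KO was above and ptgs1-KO below scramble cells, and the difference of ptgs2-KO from ptgs1-KO cells was 0.770 (adjusted p = 5.01e-05). Both differences between lines passed the test in all 21 alternatives. Against scramble cells, the differences of Ctgf in ptges-KO and of Cyr61 in ptgs1-KO cells did not pass it (limma adjusted p = 0.0875 and 0.0982). With 3 samples a group, no sample was tested for standing apart from its group.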

How the results depend on the processing

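Among the 10 genes, the differences that passed the test in all 21 alternatives were those of Cyr61 and Ankrd1 in ptgs2-KO against scramble and against ptgs1-KO cells, of Cyr61 in ptges-KO against ptgs2-KO cells, and of Ctgf in both other knockout lines against ptgs1-KO cells. For the settings that changed a count, the cause was not tested. In ptgs1-KO against scramble cells, 2 of the 10 genes were called; this was 1 with no filter, 1 with eBayes without trend, 0 by the Tukey test, and 0 to 2 with a replicate left out. In ptgs2-KO cells it was 2, with 4 under median ratio scaling. In ptges-KO cells it was 0, with 1 at a filter of 10, 3 with median ratio scaling, 2 with quantile normalization, 1 with the replicate block, and 0 to 2 with a replicate left out. Between lines, ptges-KO against ptgs2-KO gave 2 (Tukey 1) and ptgs2-KO against ptgs1-KO 5 (Tukey 3), while ptges-KO against ptgs1-KO gave 4, with 7 under median ratio scaling, 7 under quantile normalization, 2 with only the 2 groups compared, 1 by the Tukey test, and 2 to 5 with a replicate left out.

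Over all genes tested, ptgs1-KO against scramble cells gave 1045 calls, with 582 at the filter of 10, 1570 under quantile normalization, 361 by the Tukey test, and 645 to 1163 with a replicate left out. The ptgs2-KO cells gave 1257, with 1927 under median ratio scaling, 420 by the Tukey test, and 722 to 1556 with a replicate left out. The ptges-KO cells gave 2969, with 1151 by the Tukey test and 1936 to 3278 with a replicate left out. The Tukey test gave 639 calls for ptges-KO against ptgs2-KO cells (1873 by limma, 1104 to 2236 with a replicate left out), 1590 for ptges-KO against ptgs1-KO (3409), and 1300 for ptgs2-KO against ptgs1-KO (2665). Under the scalings, the median over all genes of the change in a gene's difference was at most 0.064 in size on the log2 scale.

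In the Hippo list, 2 calls in ptgs1-KO cells became 1 with no filter, with the replicate block, and with only the 2 groups compared, 0 at the filter of 10 and by the Tukey test, and 1 to 3 with a replicate left out; 0 calls in ptgs2-KO cells stayed at 0 in each alternative; 6 calls in ptges-KO cells became 1 by the Tukey test and 2 to 8 with a replicate left out. In the target list, 5 calls in ptgs1-KO cells became 3 with no filter, 3 by the Tukey test, and 3 to 5 with a replicate left out; 1 call in ptgs2-KO cells became 2 under median ratio scaling, 3 under quantile normalization, 0 by the Tukey test, and 1 to 2 with a replicate left out; 4 calls in ptges-KO cells became 7 under quantile normalization, 1 by the Tukey test, and 3 to 8 with a replicate left out.

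Ankrd1 in ptgs1-KO against scramble cells, not called, changed sign to 0.002 under quantile normalization and ran from -0.092 to 0.034 with a replicate left out. Of 33 further differences that were neither called nor named, 14 changed sign in an alternative, the largest of them 0.079 in size, and 2 were called in at least 1.

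Same-numbered samples did not deviate together in every pair (mean r 0.0123 over 18 pairs, from -0.341 to 0.566), and 5 of the 12 samples correlated best with their own number. Under the replicate block the calls among the 10 genes were 2 in ptgs1-KO, 3 in ptgs2-KO, and 1 in ptges-KO cells against scramble, and over all genes 1105, 1365, and 3099. It added Amotl2 in ptgs2-KO (adjusted p = 0.0412) and Axl in ptges-KO cells (0.0418), and Amotl2 (0.0221) and Ajuba (0.045) in ptges-KO against ptgs1-KO cells, and Vgll3 in ptgs1-KO cells was lost (0.0562).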
